A study of Homo sapiens with 6 samples.

Results

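The transcripts of 10 secreted proteins, namely osteopontin (SPP1), fibronectin (FN1) and 8 further matricellular proteins, were followed in A375 human melanoma cells with and without RIPK4. The genes were chosen by name (SPP1, SPARC, SPOCK1, THBS1, THBS2, THBS3, TNC, CCN3, POSTN and FN1), and each matched 1 of the 20851 gene rows of the deposited count table. The 3 A375RIPK4.KO libraries came from cells in which RIPK4, a serine/threonine kinase, had been disrupted with CRISPR/Cas9 (clone #1). The 3 A375neg libraries came from the negative control line, labelled as a GFP control. According to the paper, the negative control lines were made with a nontargeting guide RNA. Both lines had been through the genome-editing procedure, no drug or other treatment is given for either, and the replicates are described as biological. Because every A375RIPK4.KO library was made from 1 clone, loss of RIPK4 and the history of that clone cannot be told apart in any comparison here.

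Matricellular proteins are secreted into the extracellular matrix but act mainly as signals, binding integrins, CD44, proteases and growth factors rather than forming the scaffold itself. Osteopontin, SPARC, the thrombospondins, tenascin-C and periostin are best known from wound healing, bone and tumour stroma, where they tune how firmly cells hold on to the matrix. Fibronectin is a structural glycoprotein whose fibrils carry integrin binding sites and to which several of the others attach. In melanoma, SPP1, SPARC and TNC are known from invasive lesions, and CCN3 is known for its part in anchoring normal melanocytes to the basement membrane.

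RIPK4 itself had 319, 368 and 404 raw counts in A375neg replicates 1 to 3 and 42, 51 and 61 in A375RIPK4.KO replicates 1 to 3, so every library carried the RIPK4 level of its label. The log2 fold change was −2.69 (SE, the standard error, 0.17, adjusted p = 1.01e-05, edgeR's quasi-likelihood test). Each library held between 21882863 and 26694140 counts assigned to genes, and 3 counts, the limit that a count of 0 allows, corresponded to 0.112 to 0.137 CPM, the count relative to the library total. Replicate 2 of A375RIPK4.KO stood apart from the other 2 libraries of its group. Its log2 differences from them across genes had an SD of 0.539 and 0.503, against 0.423 to 0.484 for the remaining pairs within a group. The departure followed the annotated exon length of the gene (all its exons merged), read here on TMM-scaled library sizes. The median log2 difference from the mean of replicates 1 and 3 was 0.17 in genes with at most 3122 annotated exon bases. It was −0.11 in those with 7515 or more. The results that rest on this library, those for FN1 and THBS1 above all, are therefore given with and without it. Of 10 melanocytic markers listed, 6 were read and the other 4 were not analysed here. SOX10, CSPG4 and MCAM had at least 3361 counts in every library and MITF 288 to 535, whereas the pigment gene PMEL had only 3 to 22. S100B, with 83, 117 and 160 counts in A375neg and 55, 57 and 64 in A375RIPK4.KO, was called lower (−0.89, adjusted p = 0.0361). The summed level of the 6 ran from 1083 to 1190 CPM in A375neg and from 862 to 904 in A375RIPK4.KO. The summed fibroblast markers, of which 5 of 7 were read, stayed between 4.12 and 6.95 CPM in both groups. PDPN rose from 0, 1 and 0 counts to 23, 29 and 21 (adjusted p = 0.000594, edgeR) and was the only one called. LUM, with 19, 20 and 39 counts against 7, 11 and 9, did not pass the test (−1.38, adjusted p = 0.0552). Neither did PDGFRA (0.27, adjusted p = 0.374) or FAP (0.61, adjusted p = 0.58). DCN, with 28, 8 and 5 counts against 5, 6 and 4, was not tested. PTPRC, the defining leukocyte marker, had at most 3 counts in any library, and the 4 leukocyte markers read, of 6, summed to between 43.9 and 50.4 CPM, nearly all of it CD68. LYZ, another of these, fell from 38, 36 and 37 counts to 13, 0 and 3 (−2.62, adjusted p = 0.0382). The 3 keratinocyte markers read, of 6, summed to 71.4 to 75.5 CPM in A375neg and 53.8 to 63.3 in A375RIPK4.KO, and the 5 endothelial markers to at most 17.6 CPM in A375neg and 18.7 to 20.4 in A375RIPK4.KO, led by KDR. The endothelial markers went opposite ways, since KDR rose by 0.60 on the log2 scale (adjusted p = 0.0216, edgeR) while PECAM1, a defining marker, fell from 21, 23 and 24 counts to 4, 5 and 5 (−2.12, adjusted p = 0.00556), and CDH5 had 7, 7 and 14 counts against 4, 2 and 0. The part of these marker differences in the results below was not tested. In bulk RNA, fewer cells expressing a gene and less RNA per cell cannot be told apart.

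The sequences upstream of 3 genes are shown first, SPP1 for the largest change among the 9 genes tested and THBS1 and FN1 because their fold changes had opposite signs. They are taken from RefSeq (GRCh38.p14) and cover up to 250 bases before the annotated start, shortened where a GENCODE transcript of the gene begins further upstream. Capitals mark matches to short motifs searched on both strands, which are RUNX (ACCACA), ETS (GGAAGT), TEAD (GGAATG) and the cAMP response element CRE (TGACGTCA). The SPP1 window is chr4:87975464-87975649 on the plus strand, the THBS1 window chr15:39580829-39581078 on the plus strand, and the FN1 window chr2:215436173-215436318 on the minus strand.
SPP1: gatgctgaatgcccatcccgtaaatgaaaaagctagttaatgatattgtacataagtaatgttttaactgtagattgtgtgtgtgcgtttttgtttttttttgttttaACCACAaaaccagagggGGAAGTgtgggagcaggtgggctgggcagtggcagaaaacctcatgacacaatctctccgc
THBS1: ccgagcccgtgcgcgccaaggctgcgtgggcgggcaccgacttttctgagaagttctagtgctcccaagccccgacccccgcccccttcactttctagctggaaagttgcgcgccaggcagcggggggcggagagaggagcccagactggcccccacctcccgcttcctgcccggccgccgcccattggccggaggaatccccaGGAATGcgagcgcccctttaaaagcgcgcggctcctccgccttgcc
FN1: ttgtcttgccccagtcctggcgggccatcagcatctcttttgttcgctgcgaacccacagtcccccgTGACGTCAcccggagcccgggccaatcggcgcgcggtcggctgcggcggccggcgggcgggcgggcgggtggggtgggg
The SPP1 window held a RUNX match, the letters that bone-forming RUNX factors read, followed by an ETS match. The same letters occur in the 250 bases upstream of 11.0% (RUNX) and 19.5% (ETS) of 35116 RefSeq promoters. Among the other genes of the group, the full window of THBS3 also held an ETS match. The THBS1 window held a TEAD match, found in 11.9% of promoters, and the full windows of SPARC and THBS2 held one too. The CRE in FN1, found in 1.65%, was the least common of the motifs searched. The full window of POSTN held the AP-1 motif (TGANTCA), which is present in 6.57% of promoters. It shared a match to TATAAA, the letters of the TATA box (present in 10.7%), with the full window of THBS2. In POSTN the match is the reverse complement, TTTATA. A match shows only that the letters are present. Windows were at hand for 8 of the 10 genes.

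Of the 10 genes, 9 had enough reads for the test and were compared with all other genes in 1 fit of 14443 genes. A gene is called changed at a Benjamini-Hochberg adjusted p under 0.05 and at least a 1.5-fold difference. By that rule 1 of the 9 rose, SPP1, where 4.39% of all genes tested rose, and 2 fell, SPARC and CCN3, where 4.65% of all genes fell. By the adjusted p alone, 4 of the 9 were lower in A375RIPK4.KO (SPARC, THBS3, TNC and CCN3, against 8.24% of all genes) and 1 was higher (SPP1, against 8.4%), together 5 where 16.6% of all genes passed. The libraries of the 2 groups did not overlap for 6 of the 9, a separation found for 36.5% of all genes tested. Of these 6, SPP1 was higher, a direction of separation seen in 18.7% of all genes, and 5 were lower, as in 17.8%. The median log2 fold change of the 9 was −0.37, beside −0.0046 over all genes, and their median absolute log2 fold change was 0.51 beside 0.18. The fold changes of SPP1 and FN1 were positive and those of the other genes tested were negative.

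**Figure D1:**
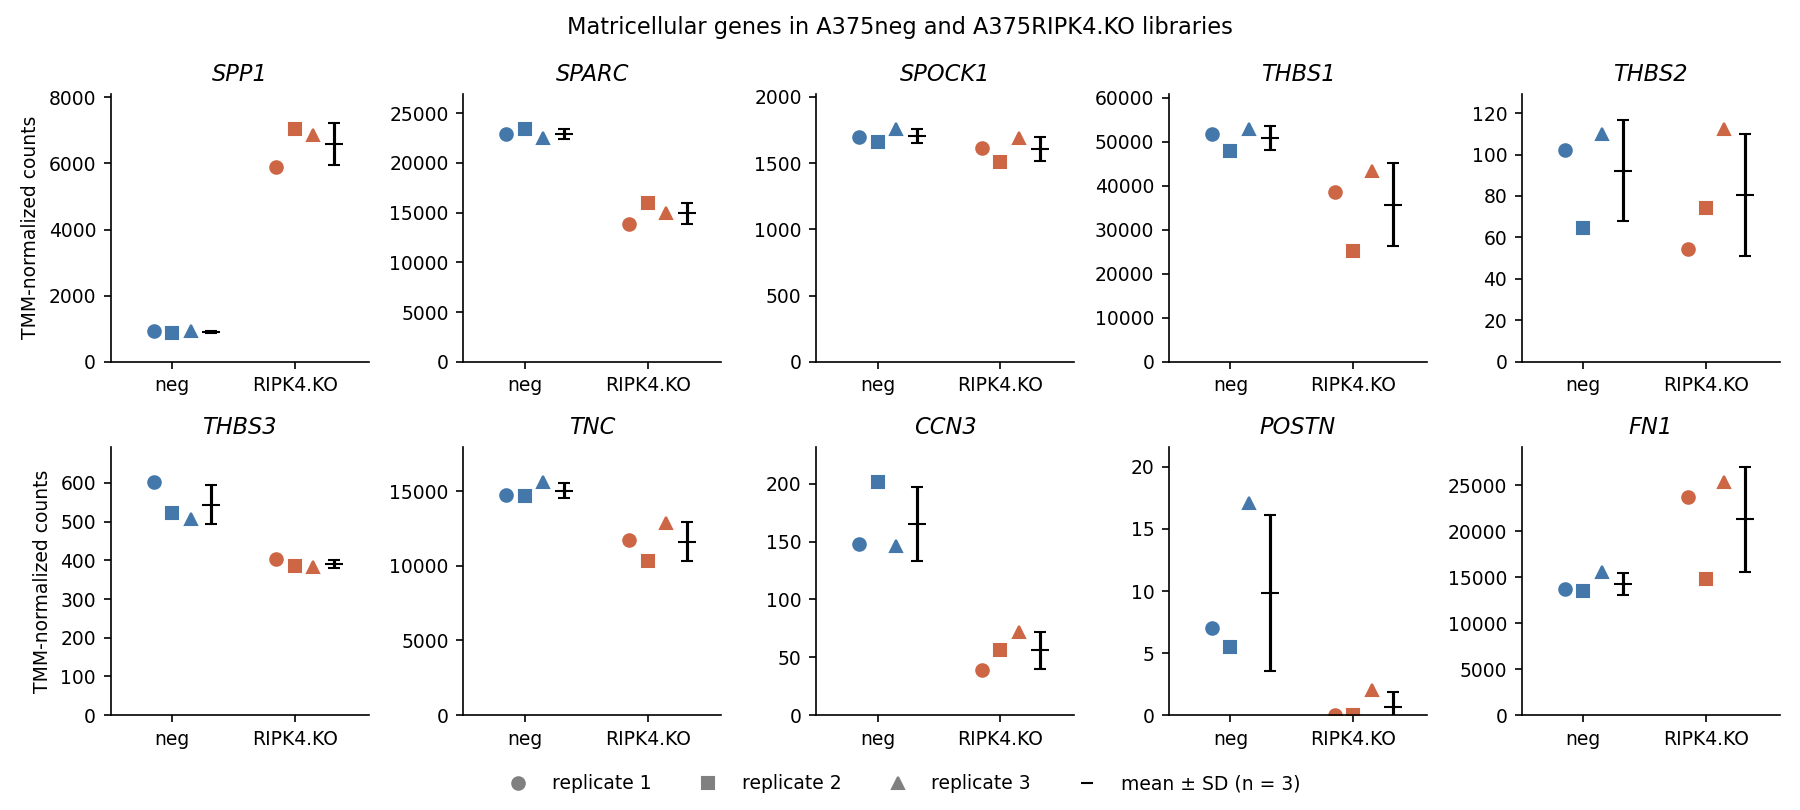
TMM-normalized counts (vertical axes, each from 0) of the 10 genes in the 3 A375neg and 3 A375RIPK4.KO libraries, 1 point per library with the mean ± SD beside it. SPP1 is higher in all 3 A375RIPK4.KO libraries (6596 against 910 on average), SPARC, THBS1, THBS3, TNC, CCN3 and POSTN are lower in all 3, and for FN1 replicate 2 of A375RIPK4.KO sits among the control libraries.

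SPP1 (chromosome 4 of GRCh38, RefSeq positions 87975714 to 87983411) encodes osteopontin, a phosphorylated ligand of CD44 and of alpha-v integrins. It had 936, 944 and 976 raw counts in A375neg and 5377, 6759 and 6760 in A375RIPK4.KO. The lowest knockout library thus held several times the reads of the highest control library, and the control libraries differed little among themselves. The normalized count rose from 910 ± 35.6 to 6596 ± 630 (SD, n = 3 in each group), a 7.25-fold increase. The log2 fold change was 2.86 (SE 0.09, adjusted p = 1.18e-07, edgeR). It stayed between 2.81 and 2.94 with any 1 library left out, and was 2.81 without replicate 2 of A375RIPK4.KO. Its share of all counts went from 0.00372% to 0.0268%.

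SPARC (chromosome 5, 151661096 to 151686915), a collagen- and calcium-binding glycoprotein that weakens cell attachment, moved the other way. The raw counts were 22900, 25467 and 23709 in A375neg and 12653, 15327 and 14771 in A375RIPK4.KO, with no overlap of the groups. It fell 1.54-fold (log2 fold change −0.62, SE 0.07, adjusted p = 0.000326, edgeR), and its share of the library went from 0.0936% to 0.0606%. The decrease lay close to the 1.5-fold limit, and without replicate 1 of A375RIPK4.KO it was −0.57 and short of it (adjusted p = 0.00106). SPARC, CCN3 and THBS1 were among the genes the study itself picked out from these libraries, as were FSTL1, ITGA4, SDC4, MMP9, TGFBR1 and TGFBR2 of the lists read further on, so their direction here is not independent evidence of it. The related proteoglycan gene SPOCK1 (testican-1; chromosome 5, 136975298 to 137499326) had 1699, 1800 and 1857 counts in A375neg and 1476, 1447 and 1667 in A375RIPK4.KO. After normalization its groups overlapped, with a log2 fold change of −0.09 (SE 0.07, adjusted p = 0.413).

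The 3 thrombospondin genes differed more in level than in direction. THBS1 (chromosome 15, 39581079 to 39599466), whose product binds CD36, CD47 and integrins and can activate latent TGF-beta, was the most abundant gene of the group by raw count. It had 51674, 51854 and 55884 counts in A375neg and 35204, 24146 and 42802 in A375RIPK4.KO. Every knockout library lay below every control library, but the knockout libraries were spread widely, with replicate 2 the lowest. The normalized count was 50799 ± 2706 in A375neg and 35694 ± 9410 in A375RIPK4.KO (SD, n = 3), and the log2 fold change of −0.51 (SE 0.17) did not pass the test (adjusted p = 0.0699, edgeR). With the trend on exon length removed from each of the 6 libraries it was −0.49 (adjusted p = 0.0224), past the p limit and short of 1.5-fold. Without replicate 2 of A375RIPK4.KO the difference was smaller but more even, at −0.31 (SE 0.06, adjusted p = 0.00726), still short of 1.5-fold. Without replicate 3 of A375RIPK4.KO it was −0.67 (adjusted p = 0.0321) and would have been called. The share of the library taken by THBS1 was 0.207% ± 0.0116 in A375neg and 0.146% ± 0.0422 in A375RIPK4.KO.

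THBS3 (chromosome 1, 155195588 to 155209178), which encodes a pentameric thrombospondin, had 603, 567 and 535 counts in A375neg and 369, 369 and 378 in A375RIPK4.KO. The groups did not overlap, and the log2 fold change was −0.48 (SE 0.10, adjusted p = 0.00883, edgeR), a 1.39-fold lower level that missed the fold limit. The gene overlaps THBS3-AS1 and MTX1, whose log2 fold changes were −0.04 and 0.05. Which strand the reads were counted on is not given in the sources used here. The same limit holds for FN1, which overlaps ATIC (0.04, adjusted p = 0.755, edgeR), and THBS1, which overlaps FSIP1 (−0.41, adjusted p = 0.262). It also holds for SPARC, which overlaps CLMAT3 (4, 0 and 0 counts in A375neg, 0, 0 and 0 in A375RIPK4.KO). THBS2 (chromosome 6, 169215785 to 169253846), an antiangiogenic relative of THBS1, had only 102, 70 and 116 counts in A375neg and 50, 71 and 111 in A375RIPK4.KO. Its groups overlapped, and the log2 fold change of −0.19 (SE 0.30, adjusted p = 0.718) took either sign when libraries were left out.

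TNC (chromosome 9, 115019575 to 115118157) encodes tenascin-C, a hexameric protein that interferes with adhesion to fibronectin. Its raw counts were 14745, 15957 and 16480 in A375neg and 10714, 9863 and 12681 in A375RIPK4.KO. The groups did not overlap, at 15020 ± 520 and 11621 ± 1283 normalized counts (SD, n = 3). The log2 fold change was −0.37 (SE 0.08, adjusted p = 0.0161, edgeR), 1.29-fold lower and short of the fold limit. Without any 1 of the A375neg libraries the adjusted p rose to between 0.0555 and 0.0713.

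CCN3 (chromosome 8, 119416446 to 119424434), a cysteine-rich CCN protein, fell the most among the genes tested. It had 148, 219 and 154 counts in A375neg and 36, 54 and 71 in A375RIPK4.KO, with no overlap. The normalized count went from 165 ± 31.6 to 55.9 ± 16.3 (SD, n = 3), 2.95-fold lower, with a log2 fold change of −1.56 (SE 0.25, adjusted p = 0.0028, edgeR) that stayed between −1.78 and −1.36 with 1 library left out. POSTN (chromosome 13, 37562585 to 37598768), which encodes periostin, an integrin ligand of remodelling stroma, was close to the detection limit. It had 7, 6 and 18 counts in A375neg and 0, 0 and 2 in A375RIPK4.KO and was removed by the filter. Pooled over libraries and divided by the summed TMM-scaled library sizes, 31 counts against 2 gave a ratio of A375neg over A375RIPK4.KO of 14.1, with a 95% interval of 3.59 to 122 that covers counting error only and not the spread between libraries.

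FN1 (chromosome 2, 215360865 to 215436068) had 13707, 14614 and 16477 counts in A375neg and 21701, 14167 and 25042 in A375RIPK4.KO. Replicates 1 and 3 of A375RIPK4.KO lay above every control library, and replicate 2 lay within the control range. The normalized count was 14261 ± 1181 in A375neg and 21299 ± 5700 in A375RIPK4.KO (SD, n = 3). The log2 fold change of 0.58 (SE 0.17, adjusted p = 0.0521, edgeR) missed both limits narrowly. Without replicate 2 of A375RIPK4.KO it was 0.79 (SE 0.07, adjusted p = 2.11e-05) and past both, while with any other library left out the adjusted p was between 0.0937 and 0.163. With all 6 libraries and the trend on exon length removed from each, FN1 was again past both limits, at 0.61 (SE 0.12, adjusted p = 0.00443).

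**Figure D2:**
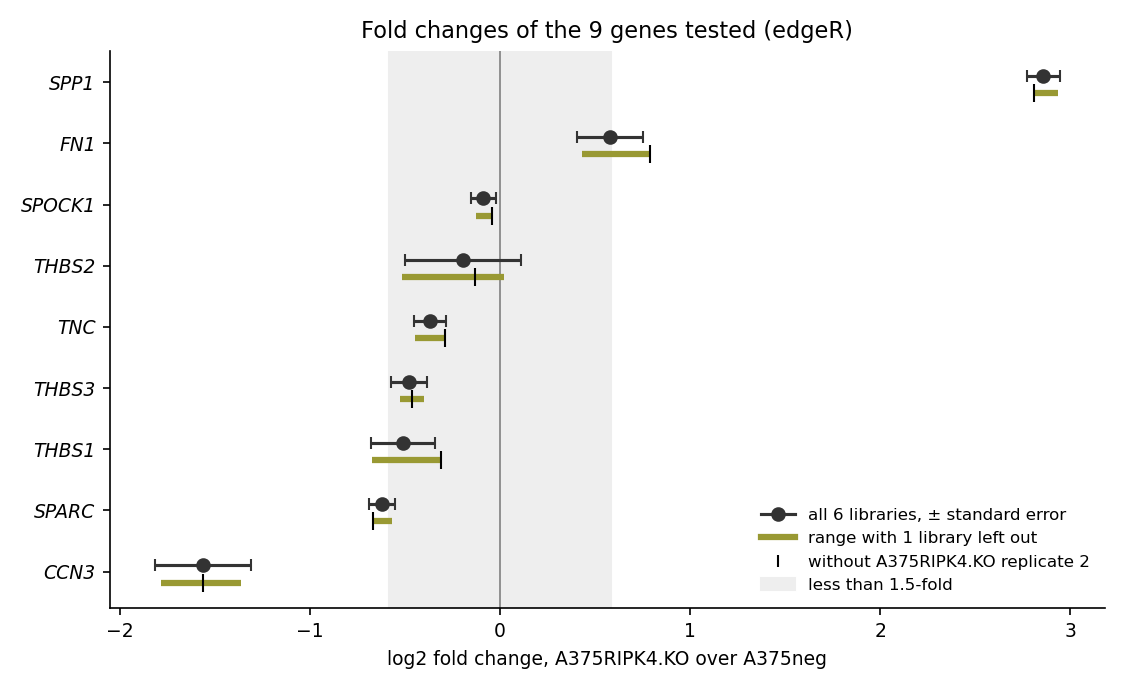
Log2 fold changes of A375RIPK4.KO over A375neg (horizontal axis) for the 9 genes tested, with standard errors (points and bars), the range over fits with 1 library left out (thick lines) and the value without A375RIPK4.KO replicate 2 (ticks). SPP1 at 2.86 and CCN3 at −1.56 are far from the shaded zone of less than 1.5-fold, whereas FN1 leaves the zone and THBS1 moves toward 0 without replicate 2.

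THBS1 and FN1 were the genes of the group on which replicate 2 of A375RIPK4.KO departed furthest. On TMM-scaled library sizes instead of library totals, its log2 CPM lay 0.70 below the mean of replicates 1 and 3 for THBS1. A deviation as low was found in 6.63% of all genes tested. For FN1 its log2 CPM lay 0.73 below, as low in 6.17%. On the same TMM scale TNC lay 0.25 below, whereas SPP1 and SPARC each lay 0.15 above. FN1 has 17315 annotated exon bases and THBS1 has 9158, against 2321 for SPP1 and 4831 for SPARC. TNC, with 9636 exon bases, has more than THBS1 and departed less. By the longest coding transcript, however, TNC is slightly shorter, at 7641 bases against 7775 for THBS1. What lowered the genes with many exon bases in this library was not tested.

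**Figure D3:**
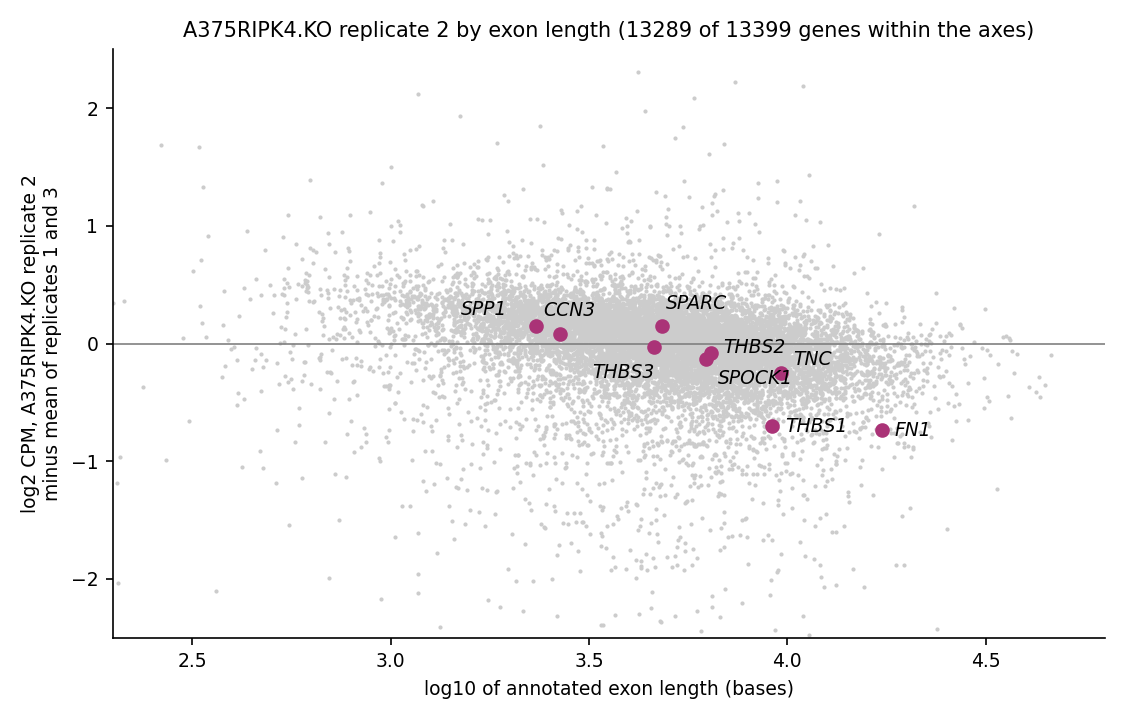
Log2 CPM on TMM-scaled library sizes in A375RIPK4.KO replicate 2 minus the mean of replicates 1 and 3 (vertical axis) against the log10 of annotated exon length in bases (horizontal axis), 1 grey point per gene and the 9 genes tested in colour. The cloud slopes downward from a median of 0.17 in genes of at most 3122 exon bases to −0.11 in those of 7515 or more, and THBS1 (−0.70) and FN1 (−0.73) lie below its bulk.

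Ratios taken within a library set the 2 long transcripts against each other, so that a difference common to both cancels. Per kilobase of the longest coding transcript, THBS1 was 4.32, 4.06 and 3.88 times FN1 in A375neg and 1.86, 1.95 and 1.96 times FN1 in A375RIPK4.KO. The groups did not overlap (exact permutation test, two-sided, p = 0.1, below which 3 libraries against 3 cannot go). SPARC was 10.5, 11.5 and 10.4 times SPP1 in A375neg, and 1.01, 0.969 and 0.933 times SPP1 in A375RIPK4.KO (the same exact permutation test, p = 0.1). Both pairs were chosen after the values had been seen. Replicate 2 of A375RIPK4.KO deviated by nearly the same amount for THBS1 and FN1, and in the same direction by the same amount for SPARC and SPP1, so its ratio had to lie near those of its group. Set against SPP1, it stood apart, with THBS1 at 1.33, 0.726 and 1.29 times SPP1 and FN1 at 0.717, 0.372 and 0.658 times SPP1 in A375RIPK4.KO replicates 1 to 3. In A375neg THBS1 was 11.2, 11.2 and 11.6 times SPP1, and FN1 was between 2.6 and 3.0 times SPP1. The size of such a ratio depends on the length used, whereas its change between groups does not. Per kilobase of all annotated exons, a choice made after seeing the data, THBS1 was 6.75 times FN1 on average in A375neg and 3.17 times in A375RIPK4.KO, and SPARC was 12.1 and 1.09 times SPP1. SPARC thus exceeded SPP1 by 10.8 times on average in the control cells, and the levels were nearly equal in the knockout cells.

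**Figure D4:**
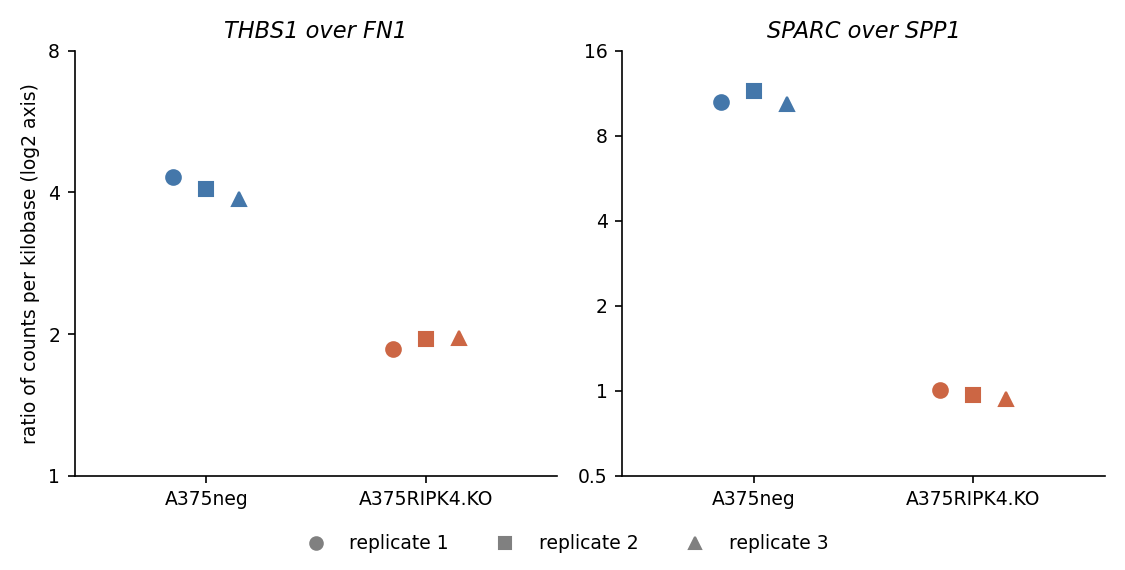
Ratio of counts per kilobase within each library (vertical axes, log2 scale) for THBS1 over FN1 and SPARC over SPP1 in A375neg and A375RIPK4.KO, 1 point per library. THBS1 over FN1 goes from about 4.09 to 1.92 on average and SPARC over SPP1 from 10.8 to 0.969.

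The order of the genes, in counts per kilobase of the longest coding transcript and scaled to library size as in CPM, placed SPP1 higher in A375RIPK4.KO than in A375neg. In A375neg the level of THBS1 was 267 ± 14.9 and that of SPARC 253 ± 4.91 (SD, n = 3), and their ranges overlapped. TNC at 80.2 ± 2.85, FN1 at 65.4 ± 5.48 and SPP1 at 23.5 ± 0.99 followed, each separate from its neighbours. SPOCK1 at 14.4, THBS3 at 6.94, CCN3 at 2.67, THBS2 at 0.647 and POSTN at 0.119 completed the order. In A375RIPK4.KO, SPP1 stood at 169 ± 12.2 beside THBS1 at 188 ± 54.2 and SPARC at 164 ± 6.62, and the ranges of these 3 overlapped. Dividing by all annotated exon bases instead exchanged SPP1 and SPARC, so their order cannot be read. With no division by length, which ranks the reads and not the levels, SPP1 went from place 6 in A375neg to place 5 in A375RIPK4.KO, and FN1 from place 4 to place 2. FN1 at 97.8 ± 28.8 and TNC at 62.0 ± 8.54 also overlapped in A375RIPK4.KO. SPOCK1 at 13.5, THBS3 at 4.96, CCN3 at 0.90, THBS2 at 0.563 and POSTN at 0.0082 kept the lower places, where CCN3 and THBS2 overlapped.

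Summed over the 10 genes, the share of all counts was 0.436%, 0.418% and 0.450% in A375neg and 0.400%, 0.294% and 0.435% in A375RIPK4.KO. The groups overlapped, with a difference of −0.0581 percentage points (two-sided exact permutation test, p = 0.2). THBS1 took the largest share of the sum, and without it the difference was 0.0034 points (exact permutation test, p = 0.9). The sum was lowest in replicate 2 of A375RIPK4.KO, and without that library the difference was −0.0168 points.

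The transcripts whose profile over the 6 libraries was most like that of SPP1, by Pearson's correlation of log2 CPM among 10829 protein-coding genes, were PRKACB (r = 0.9995), GRB10 (0.999) and FHL1 (0.9988). For SPARC they were CAPG (0.9986), RNF123 (0.9984) and NDRG1 (0.9977), and for CCN3 they were RNF19B (0.9992), SFXN1 (0.9929) and GAA (0.9919). With 2 groups of 3 libraries, such values mostly express the difference between groups, and they do not give its size. SFXN1 had a log2 fold change of only −0.10 (adjusted p = 0.236, edgeR). RNF19B and RNF123, at −0.47 and −0.34, were short of 1.5-fold, while the other genes named were past both limits. As many as 89 genes reached r of 0.99 with SPP1, 57 with SPARC and 5 with CCN3, so the order among them has little meaning.

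Relatives from the same protein families were read next (the SIBLING, SPARC, thrombospondin, tenascin, CCN and FAS1 families). Of 23 relatives listed, 8 were tested, of which 4 rose and 2 fell, with a median log2 fold change of 0.38. FSTL1, a secreted SPARC relative, had 304, 366 and 332 counts in A375neg and 1116, 1116 and 1318 in A375RIPK4.KO, a log2 fold change of 1.96 (SE 0.08, adjusted p = 1.29e-06, edgeR). CCN2, the connective tissue growth factor and a target of YAP and of TGF-beta, had 2736, 2612 and 2540 counts against 8256, 7753 and 8705 (1.78, SE 0.08, adjusted p = 1.17e-06). CCN1 and TGFBI, named after their values had been seen, also rose, by 0.94 and 0.83. The CCN genes tested were therefore split, with CCN1 and CCN2 higher and CCN3 and CCN6 lower. CCN6 had 52, 69 and 56 counts in A375neg and 2, 0 and 0 in A375RIPK4.KO, a ratio of pooled counts, scaled by library size as for POSTN, of 80.6 (95% interval 22.0 to 670, counting error only, with no allowance for spread between libraries). SMOC1, a calcium-binding SPARC relative, fell from 1504, 1668 and 1571 counts to 662, 757 and 716 (−1.02, SE 0.07, adjusted p = 1.46e-05).

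Of 14 cell surface receptors for these ligands tested, 2 rose, 3 fell and 9 were not called, with a median log2 fold change of −0.07. The 5 called stand beside 9.04% of all genes tested, and 7 of the 14 had an adjusted p under 0.05, beside 16.6%. CD44, which binds osteopontin, had 24302, 26904 and 26476 counts in A375neg and 25632, 27785 and 28768 in A375RIPK4.KO, a log2 fold change of 0.22 (SE 0.06, adjusted p = 0.0302) far short of 1.5-fold. The integrin subunits ITGAV, ITGA5 and ITGB1 had log2 fold changes of −0.08, −0.06 and 0.01 and did not pass the test. ITGB5 had −0.29 (SE 0.07, adjusted p = 0.018), short of 1.5-fold. CD44 and these integrin subunits were picked after their values had been seen. PTPRZ1, a phosphatase that binds tenascins, rose by 1.20 (36, 63 and 73 counts against 126, 115 and 117, adjusted p = 0.0106), and ITGA4, the integrin subunit that binds fibronectin and osteopontin, rose by 0.94 (adjusted p = 6.76e-05). SDC4, a fibronectin co-receptor, had a log2 fold change of −0.86 (adjusted p = 6.25e-05). LRP1, the scavenger receptor that clears thrombospondins, had −0.78 (adjusted p = 0.00487), and −0.62 without replicate 2 of A375RIPK4.KO. The third that fell was ITGB8, at −0.71, and at −0.58, short of the limit, without that replicate (named after its values had been seen, as the smallest of the 5 changes).

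Among the enzymes that cut, crosslink or phosphorylate these proteins, 14 were tested, of which 2 rose and 4 fell (median log2 fold change −0.28). MMP14, the membrane-bound collagenase that activates MMP2, fell from 4902, 5164 and 5669 counts to 833, 1079 and 1002 (−2.30, SE 0.09, adjusted p = 8.13e-07, edgeR). MMP2 itself, a gelatinase, fell by 1.34 on the log2 scale, from 4909, 5215 and 5203 counts to 1690, 1669 and 2162. CTSK, a collagen- and SPARC-cleaving cathepsin, was scarce and fell from 31, 36 and 25 counts to 7, 8 and 5 (−2.04, adjusted p = 0.00514). MMP9, which cleaves osteopontin, fell by 1.66 (adjusted p = 0.00043). The interstitial collagenase MMP1 went the other way, from 288, 259 and 210 counts to 713, 818 and 674 (1.68, adjusted p = 7.07e-05), as did HTRA1, a secreted serine protease that cuts fibronectin (1.22, adjusted p = 0.00014). TGM2, the transglutaminase that crosslinks fibronectin and osteopontin, was at 0.16 (adjusted p = 0.159). MMP2 and HTRA1 ranked below the 4 enzymes named by size and were added, with TGM2, after their values had been seen.

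Of the 10 structural matrix partners tested, 3 rose and 1 fell (median 0.30). The chains of collagen VI diverged, with COL6A1 (0.71, adjusted p = 0.000146) and COL6A2 (0.85, adjusted p = 0.000186) higher and COL6A3 lower (−1.63, adjusted p = 6.39e-06), from 692, 733 and 735 counts to 218, 198 and 219. FBLN1, a fibulin that binds fibronectin, rose from 34, 37 and 58 counts to 90, 134 and 100 (1.46, adjusted p = 0.00496). Of the 10 TGF-beta ligands, latent binding proteins and receptors, 1 rose and 2 fell (median −0.19). This count was not kept with any 1 library left out, when it came to 1 without A375neg replicate 3 and to 2 without any other. LTBP2, a microfibril-associated member of the latent TGF-beta binding protein family, was just past the limit at 0.59 (adjusted p = 0.0174). The receptors TGFBR1 and TGFBR2 had log2 fold changes of −0.67 (adjusted p = 0.00578) and −0.63 (adjusted p = 0.000256), and TGFBR1 was −0.54, short of the limit, without replicate 2 of A375RIPK4.KO. TGFB1, the main ligand, was at 0.19 (adjusted p = 0.0761). All these lists were read against the same 9.04% of genes called over the whole table, and no test of a list was made.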

How the data were processed

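RNA from 3 A375neg and 3 A375RIPK4.KO cultures was made into poly(A)-selected, strand-specific libraries and sequenced in paired-end mode. The submitters' processing notes name cutadapt, FastQC, HISAT2, HTSeq and DESeq2, without roles, and the build GRCh38.p13. The authors deposited raw counts per gene, which are whole numbers and were used here. In the same table the deposited normalized counts, a signal, equal the raw counts divided by 1 factor per library (largest difference 0.0088). The fold ratios, log2 fold changes, Wald scores, standard errors (a score) and p-values of the authors' own test were deposited too and were not used. No gene with fewer than 4 counts in all is listed.

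The groups were compared with edgeR 4.0.16 under R 4.3.3 (TMM scaling, the filterByExpr filter, quasi-likelihood test with group as the only term, Benjamini-Hochberg adjustment over 14443 genes). The standard error is the size of the log2 fold change divided by the square root of F. Normalized counts are counts at the mean TMM-scaled library size, and the factors ran from 0.958 to 1.03. Exon lengths are from GENCODE 29 (17241 of 20851 genes matched), gene positions and promoters from RefSeq on GRCh38.p14. Alternatives were DESeq2 1.42.0, other scalings and filters, the replicate number as a block, an exon length trend removed from each library, each library left out, and levels ranked without division by length or per union of exons (the last added after seeing the data). The fits were first tested on simulated data holding 200 changed genes. The 10 genes and the lists were chosen with earlier results of these data known. Every one of the 10 is named, and up to 4 called genes of each list by the size of change. The 3 most alike protein-coding genes are named for SPP1, SPARC and CCN3. Figures were drawn with matplotlib 3.10.9. Reads and proteins were not analysed here.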

Additional observations from a re-analysis of the deposited data

How the results depend on the processing

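SPP1 and CCN3 kept their direction and their call under every alternative run, and SPOCK1 was never called. With the exon length trend removed, FN1 was called at 0.61 and 2 of the 10 genes were called higher. With no fold limit 4 were called lower, and with a 2-fold limit 1 was. A 2-fold limit also left 1 receptor, 2 matrix partners and 0 TGF-beta genes called. The sum of shares reversed to 0.00338 points without THBS1. Without A375RIPK4.KO replicate 1, THBS2 reversed to 0.0216. With single libraries removed in turn, log2 fold changes ran from −0.67 to −0.57 for SPARC, −0.67 to −0.31 for THBS1, −0.51 to 0.0216 for THBS2 and 0.43 to 0.79 for FN1. The same removals gave 1 to 2 genes called higher, 1 to 3 called lower (1 without A375RIPK4.KO replicate 1, 3 without replicate 3), 1 to 2 TGF-beta genes called (1 without A375neg replicate 3), and −0.0874 to −0.0168 points for the sum of shares, the last without A375RIPK4.KO replicate 2. The causes were not tested. Over all genes 1306 were called, and 963 when the mean count had to reach 50.

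Same-numbered libraries deviated together with r of 0.0823, 0.0357 and −0.0119, and differently numbered ones with r between −0.0956 and 0.0674. With 3 libraries a group, such values cannot decide whether the replicate numbers pair the libraries. With the replicate number as a block, log2 fold changes were 2.85 for SPP1, −0.62 for SPARC, −1.58 for CCN3, −0.54 for THBS1 (adjusted p = 0.0169) and 0.54 for FN1 (adjusted p = 0.0198), with THBS1 and FN1 still short of 1.5-fold, and 1265 genes were called in all. Counts under about 20 per library, as for POSTN, limit what can be said of the rarest genes, and 3 libraries a group limit the exact tests.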

Other observations

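The genes beside SPP1 and SPARC, named here after their values had been seen, were read for 300 kb on either side. Near SPP1, PKD2 (log2 fold change 0.06, adjusted p = 0.747, edgeR) and PPM1K (0.01, adjusted p = 0.974) did not pass the test. ABCG2, a drug efflux transporter that lies between them, fell from 300, 323 and 297 counts to 83, 127 and 85 (−1.50, standard error 0.18, adjusted p = 0.000566), opposite to SPP1. Near SPARC, ATOX1, a copper chaperone, fell by 0.59 (adjusted p = 0.00454), a size close to that of SPARC. SLC36A1 was at −0.49 (adjusted p = 0.00384), short of 1.5-fold, and G3BP1 at −0.19 (adjusted p = 0.11).

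MUC1, a membrane mucin gene just beyond THBS3, had 94, 92 and 105 counts in A375neg and 48, 47 and 31 in A375RIPK4.KO (−1.06, adjusted p = 0.0155, edgeR), also named after its values had been seen. The keratin gene KRT14, from the list of keratinocyte markers, fell from 461, 607 and 504 counts to 121, 158 and 147 (−1.75, adjusted p = 3.46e-05), whereas KRT10 was at −0.01 (adjusted p = 0.976).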
